A study of Mus musculus with 14 samples.

Results

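Inflammasomes are protein assemblies in the cytosol that turn a sensed danger into caspase activity. A sensor of the NOD-like receptor family or the DNA sensor AIM2 recruits the adaptor ASC, which is encoded by Pycard, and ASC brings together pro-caspase-1. Active caspase-1 matures IL-18 and IL-1β and cleaves gasdermin D, whose fragments form pores in the plasma membrane, while caspase-11, encoded by Casp4 in the mouse, cleaves gasdermin D in response to cytosolic lipopolysaccharide. STING senses cyclic dinucleotides made after DNA reaches the cytosol, which is also the ligand of AIM2, so both pathways read the same danger in myeloid cells of the spleen. The genes described here are 9 inflammasome genes, namely the sensors Nlrp3, Nlrc4, Nlrp1b and Aim2, the adaptor Pycard, the caspases Casp1 and Casp4, the pore protein Gsdmd and the cytokine Il18. They were found through the RefSeq accession of each probe, which gave 13 of the 56605 probes of the array, and 8 of the 9 genes were bright enough to be tested among 24909 genes and unnamed transcripts.

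Splenocytes of 7 WT and 7 Stinggt/gt mice were measured, with 1 single-colour Agilent array per mouse. Both groups were C57BL/6 mice that had received chick collagen type II (CII) emulsified in Freund's complete adjuvant (CFA) 2 weeks earlier. The emulsion was injected into the skin at the base of the tail when the mice were 10 to 14 weeks old. Stinggt/gt mice carry the golden ticket allele (Tmem173gt), a point change of Sting made with the mutagen ENU on the C57BL/6 background, in every cell of the body, and came from another laboratory, whereas the WT stock was purchased, and the WT mice were not stated to be littermates of the Stinggt/gt mice. Red blood cells were lysed, no cell type was sorted, and all mice had received CFA + CII, so no unimmunized background level belongs to these values. Each value below is a log2 signal relative to the 75th percentile of its own array, so a level of 0 is the brightness of that percentile, and it describes 1 probe and is not set against the level of another probe.

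Between 30783 and 34400 probes per array were well above background, and the 75th percentile of the signal ran from 562 to 766. How many arrays there are limits the precision. Replicates 1 to 3 of both genotypes were scanned on 1 day and replicates 4 to 7 on another. On the second scan day the 4 WT arrays lay on 2 slides and the 4 Stinggt/gt arrays on 1 other slide, so genotype and slide cannot be told apart there, and only 2 slides of the first day, with 3 WT and 2 Stinggt/gt arrays, held both genotypes. All 6 B cell markers listed, 5 of 6 T cell markers and all 10 monocyte and macrophage markers passed the filter on dim probes, as spleen should show (Trac was not matched), and 3 of 7 pancreas and fat markers (Ctrb1, Adipoq and Fabp4) were also bright enough to be tested. A single WT array stood apart in them, since Ctrb1, a digestive enzyme of the pancreas, lay at 7.06 in WT replicate 4 and at -4.96 to -2.04 on the other 13 arrays. Without WT replicate 4 the log2 fold changes of the members over all arrays kept their direction, Pycard was at 0.21 (unadjusted p = 0.0687) and no member was called, and in replicates 4 to 7 Il18 went from 0.0094 to -0.0068. The targeted gene, Sting1, had a log2 signal of 2.35 to 2.85 in WT mice (median 2.64) and 2.45 to 2.77 in Stinggt/gt mice (median 2.65). Its log2 fold change was 0.04 with a standard error of 0.10 (adjusted p = 0.9998, limma), and since the allele changes the protein, this RNA level checks no label.

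Of the 8 tested inflammasome genes, Pycard alone passed the threshold that the study set for its heat map, 0.05 with no adjustment, and it was higher in Stinggt/gt mice. At this threshold 3.48% of all genes were called (868 of 24909, 464 higher and 404 lower), and against that background 1 call among 8 is not particular to these genes. None of the 8 passed after Benjamini-Hochberg adjustment (adjusted p = 0.9998 for each, limma), where 0.00401% of all genes passed (1 gene). The log2 fold change, Stinggt/gt minus WT, was above 0 for 5 genes and below 0 for 3, with a median of 0.13 against 0.02 over all genes. The groups overlapped for all 8 genes, and for 4 of them the difference was smaller than its standard error.

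**Figure D1:**
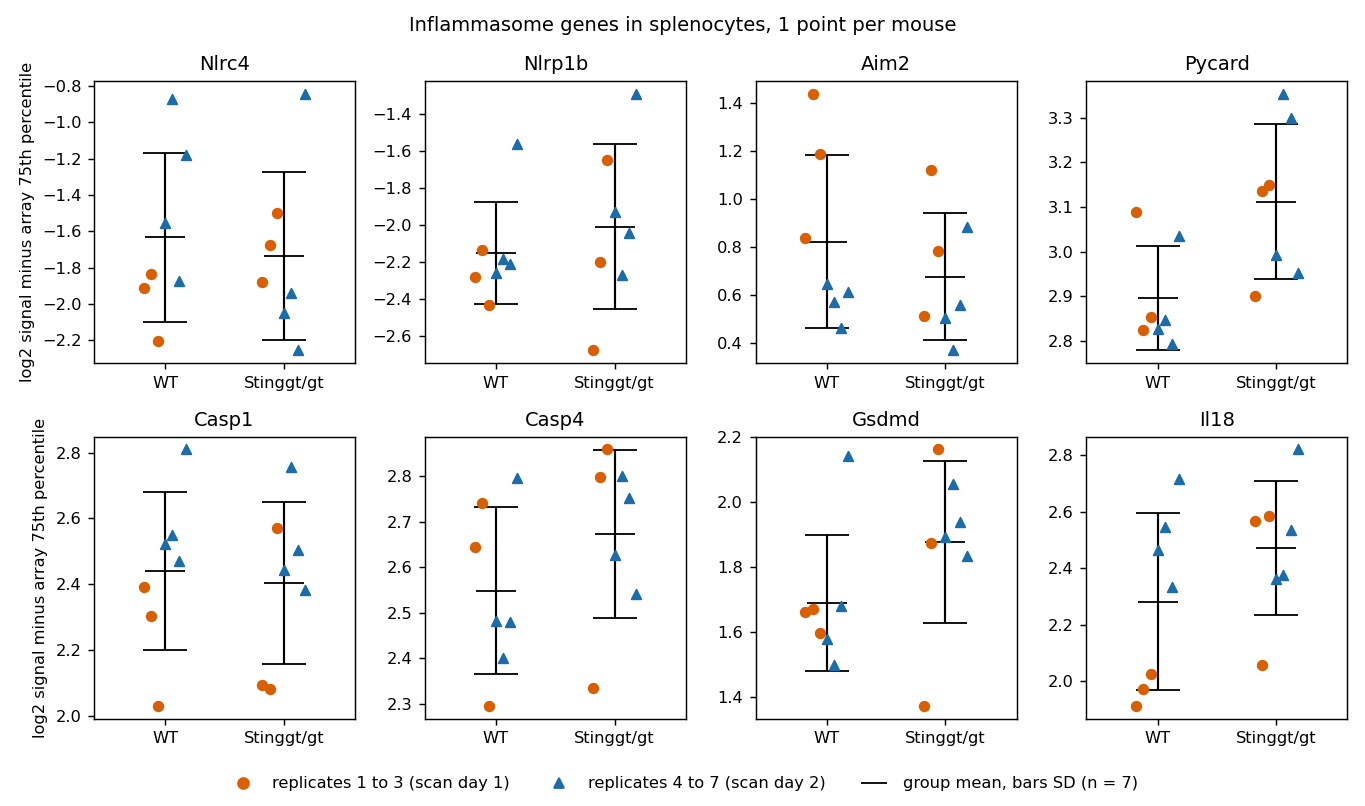
Log2 signal relative to the array's 75th percentile (y axis) of the 8 tested inflammasome genes in WT and Stinggt/gt mice, with 1 point per mouse, circles for replicates 1 to 3, triangles for replicates 4 to 7, and the group mean with its SD (n = 7) in black. Pycard is the gene whose 7 Stinggt/gt mice all lie above the WT median of 2.85, and every gene has overlapping groups.

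NLRP3 is the sensor of potassium efflux and of many crystals and toxins, and its RNA is induced by priming signals. The 1 probe of Nlrp3 was well above background on 0 of 7 WT arrays and on 1 of 7 Stinggt/gt arrays, so Nlrp3 was not tested and no fold change is given. Its signal is a bound only, and a difference between the genotypes was not detectable at this brightness.

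NLRC4 responds to flagellin and bacterial secretion needles bound by NAIP proteins. Nlrc4 ranged from -2.20 to -0.87 in WT mice (median -1.83) and from -2.25 to -0.84 in Stinggt/gt mice (median -1.88). The ranges coincided almost fully, and the highest mouse of each group lay well above its group's median. The log2 fold change was -0.10 (standard error 0.23, 95% confidence interval -0.59 to 0.39, exact permutation p = 0.687), so a change of either sign within these bounds is not excluded. Its sign turned when slide was a block (0.027 as a random effect and 0.22 as a fixed one) and without WT replicate 5 (0.025).

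NLRP1B is cleaved and activated by bacterial proteases such as anthrax lethal factor. Of its 3 probes, the brightest ranged from -2.43 to -1.56 in WT mice (median -2.21) and from -2.68 to -1.29 in Stinggt/gt mice (median -2.04). Stinggt/gt minus WT gave 0.14 (standard error 0.19, interval -0.26 to 0.55, exact permutation p = 0.485), and -0.17 with slide fixed. The second Nlrp1b probe, well above background on 5 WT and 6 Stinggt/gt arrays, gave 0.145 (standard error 0.27, unadjusted p = 0.598), and the third was well above background on no array. Nlrp1b has close paralogs, and which of them each probe reads was not tested.

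AIM2 binds double-stranded DNA in the cytosol the trigger from which the STING pathway also starts. The brighter of 2 Aim2 probes ranged from 0.46 to 1.44 in WT mice (median 0.65) and from 0.37 to 1.12 in Stinggt/gt mice (median 0.56). The dimmer probe ranged from -1.68 to -1.01 in WT mice (median -1.47) and from -1.51 to -0.99 in Stinggt/gt mice (median -1.38). Neither probe separated the genotypes. The brighter gave a log2 fold change of -0.15 (standard error 0.16, interval -0.50 to 0.21, exact permutation p = 0.401) and the dimmer 0.06 (standard error 0.13, unadjusted p = 0.661). Probe by probe, 3.43% of the 31767 tested probes were called, and of the 11 tested probes of the members that of Pycard alone.

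ASC, the product of Pycard, polymerises into the speck on which caspase-1 is activated, and most sensors need it. Pycard ranged from 2.79 to 3.09 in WT mice (median 2.85, mean 2.90 ± 0.12, SD, n = 7) and from 2.90 to 3.35 in Stinggt/gt mice (median 3.14, mean 3.11 ± 0.17, SD, n = 7). All 7 Stinggt/gt mice lay above the WT median and 4 of them above the highest WT mouse, while 3 lay within the WT range. Pycard was 1.16-fold higher in Stinggt/gt mice (95% confidence interval 1.01 to 1.34), a log2 fold change of 0.22 with a standard error of 0.10 (unadjusted p = 0.0407, limma). Its exact permutation p, two-sided over 3432 ways to split the mice 7 against 7, was 0.0186. The difference was 0.14 in replicates 1 to 3 and 0.27 in replicates 4 to 7, and on the 2 slides that held both genotypes it was -0.06 (2 WT arrays and 1 Stinggt/gt array) and 0.28 (1 array of each).

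The call of Pycard rested on the processing. The log2 fold change stayed above 0 under all 16 alternative settings, from 0.09 to 0.25, but the p passed the threshold under 9 of them and not under 7. It was 0.0572 with quantile normalization, 0.119 with median centring, 0.215 with no scaling between arrays, 0.0547 with no filter on dim probes, 0.0800 with the replicate number as a block, and 0.169 and 0.618 where slide was a random or a fixed effect. Leaving out 1 array kept the difference between 0.18 and 0.25, and the call was lost without any of WT replicates 2, 3, 4, 5 and 6 and Stinggt/gt replicates 2, 3, 5 and 6 (9 of 14 arrays).

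**Figure D2:**
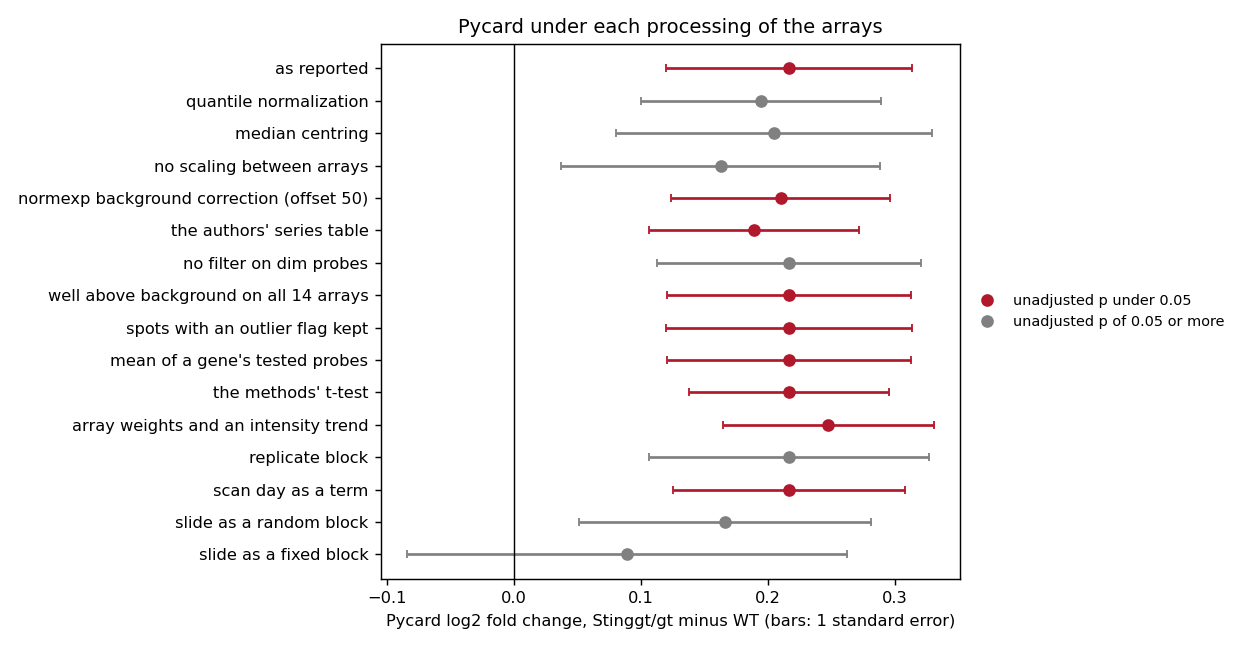
Log2 fold change of Pycard, Stinggt/gt minus WT (x axis), as reported and under 15 of the alternative settings (y axis), with bars of 1 standard error and red for an unadjusted p under 0.05; the Mann-Whitney test, which has no standard error, is not drawn. Every point lies above 0, and the point with slide as a fixed block, at 0.09, is the one whose standard error crosses 0.

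Caspase-1 is the protease of the canonical inflammasome. Casp1 ranged from 2.03 to 2.81 in WT mice (median 2.47) and from 2.08 to 2.76 in Stinggt/gt mice (median 2.44). The medians were nearly equal, and no Stinggt/gt mouse exceeded the highest WT mouse. The fold change on the log2 scale was -0.035 (standard error 0.13, interval -0.32 to 0.25, exact permutation p = 0.7995), and its sign turned without WT replicate 7 or Stinggt/gt replicates 1 or 2. Caspase-11 starts the non-canonical pathway. Casp4 ranged from 2.30 to 2.80 in WT mice (median 2.48) and from 2.33 to 2.86 in Stinggt/gt mice (median 2.75). Of the 7 Stinggt/gt mice 6 lay above the WT median and 3 above the highest WT mouse. The log2 fold change of 0.12 (standard error 0.11, interval -0.11 to 0.36, exact permutation p = 0.227) did not pass the test.

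Gasdermin D is the pore protein that both caspases cleave. The brighter Gsdmd probe ranged from 1.50 to 2.14 in WT mice (median 1.66) and from 1.37 to 2.16 in Stinggt/gt mice (median 1.89). In WT mice 6 values lay between 1.50 and 1.68 and 1 mouse, replicate 7, stood apart at 2.14. In Stinggt/gt mice 6 values lay between 1.84 and 2.16 and replicate 1 stood apart at 1.37. Stinggt/gt mice were 0.19 above WT mice on the log2 scale (standard error 0.13, interval -0.09 to 0.46, exact permutation p = 0.160), which did not pass, and the dimmer Gsdmd probe gave 0.16 (standard error 0.18, unadjusted p = 0.388). Without WT replicate 7 the difference was 0.26 (unadjusted p = 0.0429) and without Stinggt/gt replicate 1 it was 0.27 (unadjusted p = 0.0282), so either mouse decided whether Gsdmd was called. Weighting the arrays and adding an intensity trend gave 0.25 (unadjusted p = 0.0293), and slide as a fixed effect gave -0.049.

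IL-18 is made as a precursor that caspase-1 matures, and unlike IL-1β its RNA is present in many cells without priming. Il18 ranged from 1.91 to 2.72 in WT mice (median 2.33) and from 2.06 to 2.82 in Stinggt/gt mice (median 2.54). Over all arrays the log2 fold change was 0.19 (standard error 0.15, interval -0.13 to 0.51, exact permutation p = 0.222). In replicates 1 to 3 the WT mice lay between 1.91 and 2.03 and the Stinggt/gt mice between 2.06 and 2.59, with no overlap, whereas in replicates 4 to 7 the WT mice lay between 2.33 and 2.72 and the Stinggt/gt mice between 2.36 and 2.82. These arrays measured RNA from all splenocytes, so more cells of a type and more RNA per cell cannot be told apart for Il18 or any other gene here.

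The replicate sets were also fitted apart. In replicates 1 to 3, Il18 was the 1 member called (log2 fold change 0.43, standard error 0.18, unadjusted p = 0.0432, limma), beside 3.86% of all genes. An exact permutation test of 3 mice against 3 cannot go below 0.10, and the call was lost when any array of the set other than Stinggt/gt replicate 2 was left out (p between 0.0779 and 0.127) and under median centring (unadjusted p = 0.0824) and no scaling (unadjusted p = 0.168). In replicates 4 to 7 none of the 8 members was called, beside 23.3% of all genes (5805 genes), and Pycard came nearest (0.27, standard error 0.12, unadjusted p = 0.0546). This count of 0 turned with single arrays, since Pycard was called without WT replicate 7, Stinggt/gt replicate 4 or Stinggt/gt replicate 7 (0.33, 0.33 and 0.34), Gsdmd without WT replicate 7 (0.35) and Nlrc4 without Stinggt/gt replicate 7 (-0.71), and with normexp background correction Pycard and Nlrc4 were called (0.27 and -0.41). The other values for replicates 1 to 3 and 4 to 7 were 0.30 and -0.40 for Nlrc4, 0.11 and 0.17 for Nlrp1b, -0.35 and 0.01 for Aim2, 0.01 and -0.07 for Casp1, 0.10 and 0.14 for Casp4 and 0.16 and 0.21 for Gsdmd. The test of the difference itself called no member, beside 18% of all genes (4476 genes). The genotype effect on Il18 was lower by 0.42 in replicates 4 to 7 (standard error 0.22, unadjusted p = 0.0725, exact permutation p = 0.159), and that on Nlrc4 differed by -0.70 (standard error 0.43, unadjusted p = 0.124, exact permutation p = 0.107). With normexp background correction both passed (unadjusted p = 0.0419 for Il18 and 0.0216 for Nlrc4), and without Stinggt/gt replicate 7, whose Nlrc4 level of -0.84 was the highest of its group, the difference for Nlrc4 was -1.01 (unadjusted p = 0.00591) and for Il18 -0.52 (unadjusted p = 0.0249). Il18 also passed without Stinggt/gt replicate 2 (-0.60, unadjusted p = 0.0104).

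**Figure D3:**
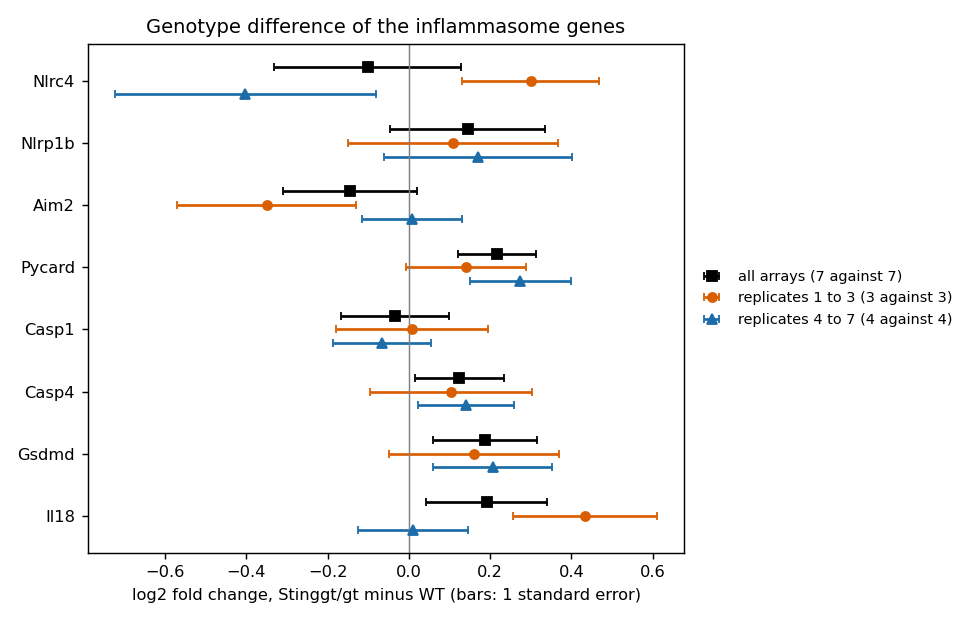
Log2 fold change, Stinggt/gt minus WT (x axis), of the 8 tested inflammasome genes (y axis) over all arrays (squares), in replicates 1 to 3 (circles) and in replicates 4 to 7 (triangles), with bars of 1 standard error. Nlrc4 lies on opposite sides of 0 in the 2 sets (0.30 and -0.40), while Pycard, Casp4, Gsdmd and Nlrp1b lie above 0 in both.

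The members were next compared between the replicate sets, and so between the scan days. In a model that also held the genotype, 3 of the 8 members differed between replicates 4 to 7 and replicates 1 to 3 after adjustment (limma), beside 38.8% of all genes (9659 genes), a share like that of the members, so the count is not particular to them. Casp1 was higher by 0.31 (standard error 0.10, adjusted p = 0.031) and Il18 by 0.33 (standard error 0.12, adjusted p = 0.041) in replicates 4 to 7, and the brighter Aim2 probe was lower by 0.40 (log2 difference -0.40, standard error 0.13, adjusted p = 0.022). The other 5 members differed by at most 0.26 and none passed. The 2 probes of Aim2 moved in opposite directions between the scan days. The brighter went from 0.84 to 1.44 in WT replicates 1 to 3 to between 0.46 and 0.65 in WT replicates 4 to 7, with no overlap, and the dimmer from -1.68 to -1.50 to between -1.47 and -1.01, also with no overlap, while in Stinggt/gt mice the 2 sets overlapped for both probes. The difference of -0.40 for the brighter (exact permutation p = 0.0122) and of 0.32 for the dimmer (exact permutation p = 0.00653, scan days permuted within genotypes, 1225 ways) thus gives no direction for Aim2 RNA between the scan days.

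The deposited log2 table, which the authors made from the same arrays, held almost none of this shift. Its columns had medians of 5.49 to 5.52, and each correlated with the scanner signal of its own array at 0.997 to 0.999, so its scale is log2 and a higher value is a brighter spot, while its centring between arrays is not stated in the sources used here. In it limma called 0 genes between the scan days after adjustment (347 before adjustment), and the members differed by -0.06 to 0.22, with the lowest unadjusted p at 0.295. The genotype differences were close to those from the scanner files. In the table Pycard was higher in Stinggt/gt mice by 0.19 (standard error 0.08, unadjusted p = 0.0369), with 12.06 to 12.42 in WT mice (median 12.17) and 12.18 to 12.55 in Stinggt/gt mice (median 12.42), and no other member passed. Il18 in replicates 1 to 3 differed by 0.42 (unadjusted p = 0.0444), near the 0.43 of the scanner files.

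**Figure D4:**
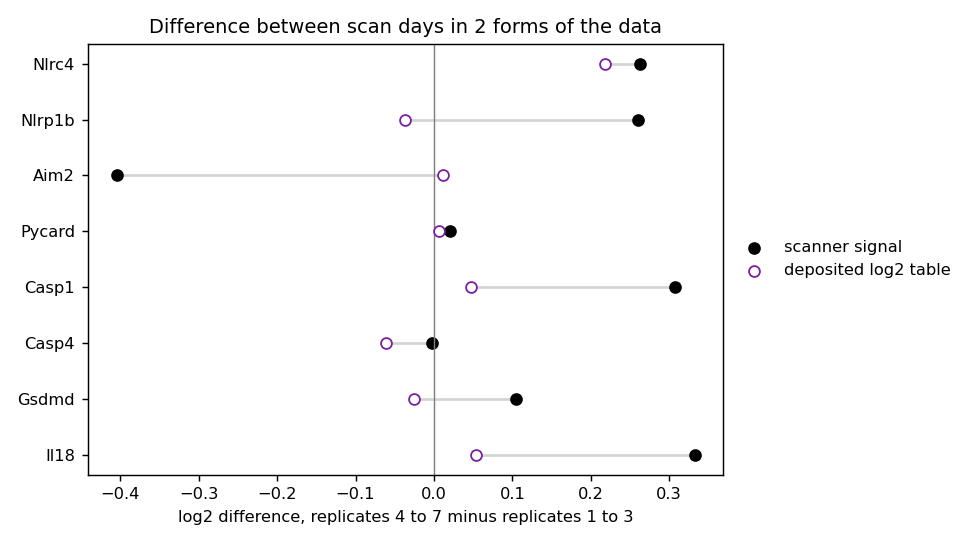
Log2 difference, replicates 4 to 7 minus replicates 1 to 3 (x axis), of the 8 tested inflammasome genes (y axis) in the scanner signal (filled circles) and in the deposited log2 table (open circles). The scanner differences run from -0.40 for Aim2 to 0.33 for Il18, and those of the table from -0.06 for Casp4, whose scanner difference was nearer to 0, to 0.22 for Nlrc4.

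Among mice of the same genotype and scan day, the adaptor, both caspases and the pore protein varied together. After the mean of each genotype and replicate set was removed, Pearson's r over the 14 arrays lay between 0.64 and 0.85 for the 6 pairs formed by Pycard, Casp1, Casp4 and Gsdmd (Spearman's rho 0.58 to 0.94), and between -0.27 and 0.67 for the other 22 pairs (median 0.15). These 4 genes were singled out after their values were seen, the arrays share scan, slide and cell makeup, and the values are a description. Casp4 and Gsdmd were the closest pair (r = 0.85, rho 0.94), and without the 2 arrays farthest from the median r was 0.87. Of the 14724 other genes with a symbol, 0.27% were as close to Gsdmd as Casp4 was, and 0.50% as close to Casp4 as Gsdmd was. The shares were larger for the other pairs of the 4 genes, from 1.27% as close to Casp1 as Casp4 was to 4.87% as close to Gsdmd as Pycard was. As close to Pycard as Casp4, Casp1 and Gsdmd were 3.12%, 3.25% and 4.46%. For the 6 pairs r lay between 0.55 and 0.81 in replicates 1 to 3, between 0.64 and 0.94 in replicates 4 to 7, and between 0.57 and 0.87 without the 2 farthest arrays. The sensors differed in how they ran with these 4 genes. Nlrp1b ran at 0.63 with Gsdmd, about as close as the loosest of the 6 pairs, at 0.47 with Casp4, 0.37 with Casp1 and 0.03 with Pycard. Nlrc4 was closest to Nlrp1b (r = 0.67) and ran at -0.17 to 0.13 with the 4 genes over all arrays, but with Casp4 it ran at 0.96 in replicates 1 to 3 and -0.30 in replicates 4 to 7. Aim2 ran at -0.27 with both Pycard and Casp1 and at 0.21 and 0.18 with Casp4 and Gsdmd.

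**Figure D5:**
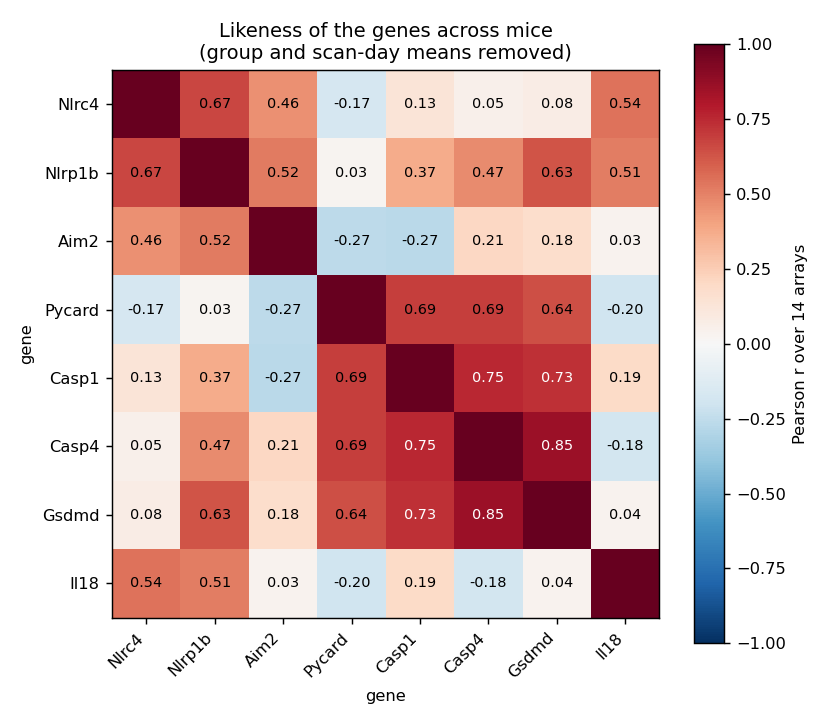
Pearson's r over the 14 arrays between each pair of the 8 tested inflammasome genes, after the mean of each genotype and replicate set was removed (colour, blue for -1 to red for 1, with r printed in each cell). The block of Pycard, Casp1, Casp4 and Gsdmd holds r from 0.64 to 0.85, and Il18 lies at 0.19 or below with all 4.

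Promoters are shown for Pycard, Casp1 and Casp4, which varied together, and for Aim2, which shares a motif with Pycard. Each window runs from 250 bases before to 50 bases after the RefSeq start site (GRCm38.p6), 5′ to 3′ along the gene. Windows were found for 8 of the 9 members, 11 windows in all, so the counts of members and the percentages of windows below differ in unit. Capitals mark a match, on either strand, to the PU.1 motif GAGGAAGT or the NF-kB motif GGGANTTCC, which do not overlap in these windows. PU.1 is a transcription factor of myeloid and B cells, and NF-kB drives priming genes.
Pycard, chr7:127993818-127994117, minus strand: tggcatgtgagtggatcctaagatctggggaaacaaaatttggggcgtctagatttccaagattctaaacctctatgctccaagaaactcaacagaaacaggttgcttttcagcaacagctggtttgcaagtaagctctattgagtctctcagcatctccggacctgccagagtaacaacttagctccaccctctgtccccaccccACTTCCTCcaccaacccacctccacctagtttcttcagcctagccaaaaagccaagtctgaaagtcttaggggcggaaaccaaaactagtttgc
Casp1, chr9:5298267-5298566, plus strand: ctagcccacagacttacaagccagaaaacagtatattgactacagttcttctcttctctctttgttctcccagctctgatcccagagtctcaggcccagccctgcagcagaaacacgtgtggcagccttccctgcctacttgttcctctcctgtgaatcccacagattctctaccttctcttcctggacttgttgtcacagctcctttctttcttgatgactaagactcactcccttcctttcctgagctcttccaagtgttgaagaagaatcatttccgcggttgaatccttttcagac
Casp4, chr9:5308599-5308898, plus strand: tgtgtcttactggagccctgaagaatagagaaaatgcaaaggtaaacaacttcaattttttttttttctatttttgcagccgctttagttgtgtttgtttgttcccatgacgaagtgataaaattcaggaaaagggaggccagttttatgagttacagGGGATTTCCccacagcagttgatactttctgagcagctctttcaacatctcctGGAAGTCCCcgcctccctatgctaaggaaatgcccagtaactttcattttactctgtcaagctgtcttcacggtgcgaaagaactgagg
Aim2, chr1:173420354-173420653, plus strand: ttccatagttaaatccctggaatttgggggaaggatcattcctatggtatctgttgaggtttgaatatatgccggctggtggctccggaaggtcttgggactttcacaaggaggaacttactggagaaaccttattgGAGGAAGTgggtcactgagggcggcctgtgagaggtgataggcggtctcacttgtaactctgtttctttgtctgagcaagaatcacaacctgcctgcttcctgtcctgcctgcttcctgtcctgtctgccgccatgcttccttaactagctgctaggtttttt
The PU.1 motif was found in the windows of Pycard, Aim2 and Nlrp1b, 3 of 8 members, and in 3.20% of all 32851 windows. In Pycard its reverse complement starts 44 bases before the start site, and in Aim2 the motif starts 113 bases before it. The NF-kB motif was found at 2 places in the Casp4 window, 92 and 39 bases before the start site, in no other member, and in 1.68% of all windows. Casp4 has 2 RefSeq start sites 11 bases apart, and the first lies 10332 bases from that of Casp1 on the same strand, so the genes are neighbours. The ISRE motif of interferon-stimulated genes, searched as GAAANNGAA, and the GAS motif of interferon-γ responses, searched as TTCNNNGAA, were in no member's window and in 8.56% and 8.30% of all windows. A match is a run of letters and says nothing of binding here.

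Genes most like the members over the 14 arrays, out of 14724 and after the same means were removed, were as follows. Pycard ran closest to Ly6c1 (r = 0.97), a surface protein of the Ly6 family, and to Tfec (r = 0.97), a transcription factor of macrophages, and Casp1 to Tnfrsf26 and AI413582 (r = 0.93 and 0.92). Casp4 ran closest to Skap2 (r = 0.95), an adaptor of myeloid integrin signalling, and Hmga2-ps1 (r = 0.94), and Gsdmd to Slc26a6 and Idnk (r = 0.93 for both). Nlrp1b ran close to Tep1 (r = 0.95), and Nlrc4 ran closest to Col6a5 (r = 0.94) and S1pr5 (r = 0.93), a receptor found on NK cells. Aim2 ran closest to Gm3696 and Zdhhc17 (r = 0.96 for both) and Il18 to Vps41 (r = 0.96), which acts in transport to lysosomes. None of these genes was called between the genotypes. The highest of 14724 values over 14 arrays is high for any gene, so these names carry no test.

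Marker genes of the splenocyte types varied with the members in different ways. With the mean of 10 monocyte and macrophage markers, r was 0.77 for Il18, 0.59 for Casp1, 0.44 for Nlrp1b and 0.40 for Pycard. It was 0.36 for Gsdmd, 0.29 for Nlrc4, 0.24 for Casp4 and -0.18 for Aim2. With the 6 dendritic cell markers it was as high for Il18 (0.79), and 0.78 for Nlrc4, 0.65 for Nlrp1b and -0.45 for Pycard. With 7 neutrophil markers r was 0.62 for Pycard and for Casp4 and -0.62 for Il18. With the 6 B cell markers r was 0.77 for Nlrp1b, 0.55 for Gsdmd, 0.53 for Casp4 and 0.52 for Casp1. It was 0.46 for Nlrc4, 0.42 for Il18, 0.41 for Aim2 and -0.03 for Pycard. With 5 NK cell markers r was 0.90 for Nlrc4 and 0.75 for Il18. The mean level of the NK cell markers was -0.83 to -0.03 in WT mice and -0.49 to 0.37 in Stinggt/gt mice, with 0 of 5 called. Pycard ran at 0.94 with Ly6c2 and 0.78 with Lyz2, a gene of inflammatory monocytes and the lysozyme gene of myeloid cells, and at -0.17 with Csf1r, while Il18 ran at 0.83 with Csf1r and 0.75 with Spic, the factor of red pulp macrophages, but at -0.11 with Ly6c2, -0.06 with Lyz2 and -0.34 with Ccr2, a chemokine receptor of monocytes. Between the genotypes 0 of 10 monocyte and macrophage markers were called (limma, unadjusted p under 0.05), 8 of 10 were higher in Stinggt/gt mice, and their mean level was 3.43 to 3.89 in WT mice and 3.47 to 3.95 in Stinggt/gt mice. The mean of the neutrophil markers was 4.98 to 5.88 and 4.81 to 5.95, with 0 of 7 called. The part of either cell type in the difference of Pycard was not tested. In replicates 4 to 7 alone 4 of 6 B cell markers were lower in Stinggt/gt mice, and over all arrays none was called. Erythroid markers ran against every tested member, most against Nlrp1b (r = -0.78), Casp4 (r = -0.76) and Gsdmd (r = -0.72) and least against Il18 (r = -0.18). Their mean level was 5.22 to 5.90 in WT mice and 4.87 to 6.08 in Stinggt/gt mice, with 4 of 6 lower in Stinggt/gt mice in replicates 4 to 7. Their part in the values of these genes was not tested.

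The wider pathway was measured through 46 further genes in 5 lists, of 50 listed. Over all arrays 1 of the 46 (2.17%) was called at an unadjusted p under 0.05, beside 3.48% of all genes, with none after adjustment by limma, and 31 were above 0 and 15 below, with a median log2 fold change of 0.08. The called gene was Card9, the adaptor of fungal lectin receptors, higher in Stinggt/gt mice by 0.57 (standard error 0.21, unadjusted p = 0.0171). It ranged from -3.65 to -3.11 in WT mice (median -3.40) and from -3.70 to -2.19 in Stinggt/gt mice (median -2.80), so it was a dim gene whose groups overlapped, and the study lists it from these same samples. Of 12 tested other sensors and adaptors, 8 were above 0 (median 0.13, from -0.29 for Naip1 to 0.57). Of 14 licensing and trigger genes, among them Nek7, P2rx7 and Txnip, 5 were above 0 and 9 below (median -0.02, from -0.14 to 0.12). The 7 genes that restrain the pathway, such as Dpp9, Il18bp and Il1rn, had a median of 0.03 (from -0.05 to 0.24). All 8 other caspases, pore and rupture genes lay above 0 (median 0.09), up to 0.41 for Gsdme (unadjusted p = 0.0565), and none was called. The 5 tested cytokine and receptor genes also lay above 0 (median 0.15), among them Il1b at 0.23 (standard error 0.24, unadjusted p = 0.363), which lay between 0.90 and 2.75 in WT mice and within that range, at 1.24 to 2.51, in Stinggt/gt mice.

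In replicates 4 to 7 alone, 7 of the 46 pathway genes were higher and 1 lower at an unadjusted p under 0.05, beside 23.3% of all genes. They included Mefv, the pyrin sensor (0.53, unadjusted p = 0.00146), Zbp1, a sensor of Z-form nucleic acids (0.49, unadjusted p = 0.0423), Mlkl, the executioner of necroptosis (0.36, unadjusted p = 0.0471), and Il1b (0.33, unadjusted p = 0.0437). The lower gene was Naip5, the flagellin receptor that works with NLRC4, at -0.40 (unadjusted p = 0.00155). It was also the 1 gene of the 46 whose genotype effect differed between the replicate sets after adjustment (adjusted p = 0.043, limma), beside 190 of all 24909 genes. That count over all genes hung on single arrays. It was 0 without WT replicate 2, 4, 6 or 7 or Stinggt/gt replicate 5 or 6, and 752 without Stinggt/gt replicate 7. Naip5 had 0.25 in replicates 1 to 3. Nlrc4 had 0.30 in replicates 1 to 3 and -0.40 in replicates 4 to 7, and its difference did not pass. In replicates 1 to 3 the 1 gene called was Il1r1, the receptor of IL-1 (0.34, unadjusted p = 0.0467). Mefv, Zbp1, Mlkl, Il1b, Naip5 and Il1r1 were called in 1 replicate set and are named with their values seen.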

How the data were processed

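RNA of splenocytes from 7 WT and 7 Stinggt/gt mice was labelled with Cy3 and measured on 14 arrays, 1 per mouse. The intensity values were produced by the authors with Agilent Feature Extraction (version 11.0.1.1), which had corrected the background spot by spot but had not normalized between arrays. The deposited series table holds log2 values of the authors, whose normalization is not given in the sources used here. No column of per-sample values was unmapped.

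Processed intensities were put on the log2 scale and the 75th percentile of their array was subtracted, after outlier spots were dropped, and replicate spots of a probe were averaged. Testing needed a probe to be well above background on 7 or more arrays of the 14, whatever the genotype. Probes were named by accession through RefSeq (32994 of 56605 probes, 58.3%, had a symbol), and a gene was read from its brightest tested probe. No coordinates of the RefSeq gene table were used for probes, and promoter windows are those of GRCm38.p6. The genotypes were compared with limma 3.58.1 in R 4.3.3 over all 24909 genes, with no covariate and with thresholds of 0.05 on the unadjusted and the Benjamini-Hochberg adjusted p. A p not named as an exact permutation p (two-sided) comes from limma. The replicate sets were fitted apart and with an interaction term. Scripts were tested on simulated data. Further computing used pandas 2.3.3, scipy 1.17.1 and matplotlib 3.10.9 under Python 3.11.15.

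The members and lists were chosen with earlier results of these data known. Genes were named by rule, namely the 9 members with all probes, Sting1, genes of the other lists past the unadjusted threshold, and the 2 genes most like each member. Others are examples of a list, chosen with their values seen. Some genes that the rule names are not reported here.

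Both groups carry replicate numbers 1 to 7. Deviations of same-numbered arrays from their group means correlated at 0.16 to 0.53, every pair above 0.1, and at -0.41 to 0.25 once scan-day means were removed, so the numbers pair the arrays by scan day. The alternatives covered scaling, background correction, the series table, the filter on dim probes, outlier spots, the probes of a gene, the test, replicate number, scan day, slide and each array left out.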

Additional observations from a re-analysis of the deposited data

Results flagged for a closer look

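In 26 groups of 7 mice (13 probes in 2 genotypes), 4 had a mouse far from the others, judged by its gap to the nearest mouse over the range of the group. Chance gives about 1 such group in 20. For the brighter Gsdmd probe, WT replicate 7 lay at 2.14, with the next mouse at 1.68, and Stinggt/gt replicate 1 lay at 1.37, with the next at 1.84. For the brightest Nlrp1b probe WT replicate 7 lay at -1.56, with the next mouse at -2.14. For the Nlrp1b probe that was well above background on 0 arrays WT replicate 1 lay at -6.77, which is not a measured level.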

How the results depend on the processing

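The count of inflammasome genes called, 1 as reported, was 0 with quantile normalization, median centring, no scaling between arrays, no filter on dim probes, the replicate number as a block, and slide as a random or a fixed effect. It was 2 (Pycard and Gsdmd) when arrays were weighted and an intensity trend was added, and 0 to 2 when single arrays were left out. The replicate numbers pair the arrays through the scan day, and with that replicate block the unadjusted p of Pycard was 0.0800 and 1416 of all genes were called in place of 868.

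Over all genes the count was 1928 in the authors' series table, 4625 with weighted arrays and a trend, 1812 with scan day as a term and 445 with slide as a random effect. Without single arrays it ran from 496 (Stinggt/gt replicate 6) to 1967 (Stinggt/gt replicate 1), and was 539 without Stinggt/gt replicate 5. The split of 464 higher and 404 lower became 250 and 568 with median centring, 149 and 614 with no scaling and 507 and 287 with normexp, and the cause was not tested. Median centring also moved the median of all genes between replicate sets from -0.013 to 0.17. Over probes 2455 were called in the series table against 1091. In replicates 1 to 3 the count was 595 with no scaling, and 506 (without WT replicate 3) to 1608 (without Stinggt/gt replicate 1) without single arrays, with 572 without Stinggt/gt replicate 3. Between replicate sets 0 genes passed in the series table by limma after adjustment, and 347 before it.

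Signs turned for values near 0. With slide as a random effect Nlrc4 was 0.027, and with slide as a fixed effect, which rests on 5 arrays, Nlrc4 was 0.22, Nlrp1b -0.17 and Gsdmd -0.049. In replicates 4 to 7, quantile normalization, no scaling and the series table gave -0.013, -0.035 and -0.012 for Aim2 and -0.042, -0.033 and -0.044 for Il18. In replicates 1 to 3, median centring, no scaling and normexp gave -0.070, -0.061 and -0.0025 for Casp1. Between replicate sets Aim2 was 0.011 in the series table. Without single arrays Casp1 ran from -0.10 to 0.027 and Nlrc4 from -0.25 to 0.025. Likewise in replicates 1 to 3 Casp1 ran from -0.15 to 0.091, Casp4 from -0.029 to 0.27, Gsdmd from -0.020 to 0.37 and Nlrp1b from -0.155 to 0.36. In replicates 4 to 7 Aim2 ran from -0.094 to 0.078, Casp1 from -0.14 to 0.0077, Il18 from -0.089 to 0.076 and Nlrp1b from -0.027 to 0.34. Leaving-out aside, 198 of 233 values of single genes kept their direction and side of the threshold. The scan-day calls of Aim2, Casp1 and Il18 were all lost with no scaling and in the series table, that of Aim2 also with median centring and that of Il18 with quantile normalization. Aim2 lost it without WT replicates 2 or 3 or Stinggt/gt replicate 2, Casp1 without 5 arrays and Il18 without 9 arrays.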
